A study of Homo sapiens with 6 samples.

Results

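The untreated state of LNCaP, an androgen-responsive human prostate cancer line grown from a lymph node metastasis, was described from 3 RNA sequencing libraries of cultures without PRMT5 knockdown, of 6 libraries in the series. All cells of the series, these cultures included, carried a stably transfected plasmid with a doxycycline-inducible hairpin RNA against PRMT5, an arginine methyltransferase, and these 3 cultures were kept for 4 days in RPMI medium with fetal bovine serum and no doxycycline. Per the series' design text the replicates are biological, and the cultures are called cultures 1, 2 and 3 here after their label numbers. Nothing in the labels gives the number of cell clones, the strand setting of the counting, or whether polyadenylated RNA was selected. All 12768 genes of the count table were members, ranked by the mean of counts scaled to a library of 1000000 counted reads (CPM) and by CPM per kb of gene length. The first scale says where the reads went, and only the second compares levels between genes of different length. No value was compared with the knockdown libraries, so everything below is a description of 1 group with no test.

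LNCaP cells descend from luminal prostate epithelium, the secretory cells that depend on the androgen receptor and make prostate-specific antigen. Any growing cell also spends much of its RNA on protein synthesis, and on small structured RNAs that cut, fold and chemically modify other RNAs. Housekeeping and lineage genes therefore share the top of such a profile, and which of them leads depends on whether reads or reads per length are ranked.

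Culture 2 stood apart from the other two, so values are given per culture and, where they lead, also without it. The libraries held 10826534, 9870850 and 7911853 counted reads in cultures 1, 2 and 3, which makes 3 counts worth 0.277, 0.304 and 0.379 CPM. The median absolute log2 difference over genes was 0.087 between cultures 1 and 3, but 0.19 between 1 and 2 and 0.18 between 2 and 3. The chi-square statistic of the counts per degree of freedom was 1.73 for cultures 1 and 3, 14.2 for 1 and 2 and 10.4 for 2 and 3, so no pair came within sampling noise of each other and each was counted as 1 culture. The table holds only genes above 1 CPM in at least 3 of the 6 libraries, and no row for any of 15 mitochondrially encoded genes, which were not analysed here.

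The reads were spread over many genes, with a steep peak at the top. The first 3 genes by CPM, RPPH1, MALAT1 and RMRP, held 7.33 ± 0.51% of all counted reads (SD, n = 3), the first 10 held 9.37 ± 0.50%, and the first 100 held 18.3 ± 0.43%. It took 1199, 1135 and 1200 genes in cultures 1, 2 and 3 to hold 50% of the reads, and without culture 2 the first 10 genes held 9.08%. The median gene had a mean of 35.7 CPM, and 39 of the 12768 reached a mean of 1000 CPM. Per length the peak was far steeper. RPPH1, RMRP and SNORA73B, all short RNAs, held 34.7 ± 2.55% of the summed CPM per kb. The 11622 protein-coding genes held 90.5 ± 0.56% of the reads and 58.7 ± 3.22% of the summed CPM per kb. In the plot of the top 20 genes on both scales, 4 genes stand in both columns, RPPH1, MALAT1, RMRP and EEF2.

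**Figure D1:**
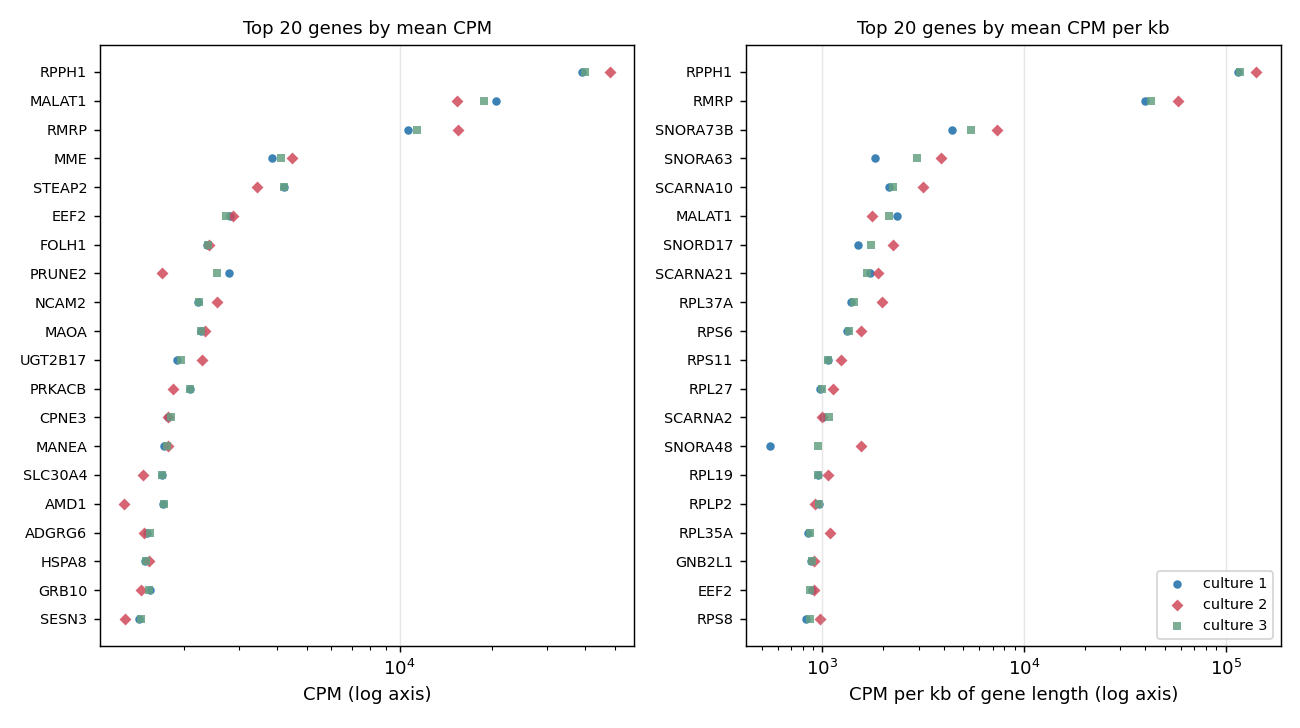
CPM (left) and CPM per kb of gene length (right), on log axes, of the 20 highest genes of each ranking in the 3 cultures without knockdown, 1 point per culture. RPPH1 leads both columns in every culture, with 48303 CPM in culture 2 against 39218 and 40159 in cultures 1 and 3.

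The gene with the most reads was RPPH1, the RNA subunit of ribonuclease P, which trims the leader from precursor transfer RNAs. It stood at 39218, 48303 and 40159 CPM in cultures 1, 2 and 3, a mean of 42560 ± 4996 CPM, so culture 2 was high and the other two lay close together. In culture 1 this was 3.92% of the reads (exact binomial 95% interval 3.91 to 3.93%), an interval that, like the others here, covers counting error only. RMRP, the RNA of ribonuclease MRP, which cuts precursor ribosomal RNA and shares protein subunits with ribonuclease P, stood at 10611, 15479 and 11427 CPM, again highest in culture 2. Per kb the means were 124809 for RPPH1 and 46663 for RMRP, and the third gene on that scale, SNORA73B, had 5735. Both RNAs are printed here because these short molecules lead the whole profile. The capitals mark the longest run of bases that they share, 9 bases from position 146 of RPPH1 and from position 243 of RMRP. RPPH1 is 333 bases long in GENCODE 29 (341 in the deposited lengths) and its first 300 bases are shown, and the 268 bases of RMRP are shown whole, both as DNA letters from the GENCODE 29 transcripts on GRCh38.
RPPH1 (chr14:20343108-20343407, minus strand): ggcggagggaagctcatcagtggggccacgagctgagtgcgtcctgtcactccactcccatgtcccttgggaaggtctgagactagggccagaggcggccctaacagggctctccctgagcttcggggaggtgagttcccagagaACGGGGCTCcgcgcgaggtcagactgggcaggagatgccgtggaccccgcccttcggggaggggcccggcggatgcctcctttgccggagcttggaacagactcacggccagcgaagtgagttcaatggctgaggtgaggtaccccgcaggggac
RMRP (chr9:35657751-35658018, minus strand): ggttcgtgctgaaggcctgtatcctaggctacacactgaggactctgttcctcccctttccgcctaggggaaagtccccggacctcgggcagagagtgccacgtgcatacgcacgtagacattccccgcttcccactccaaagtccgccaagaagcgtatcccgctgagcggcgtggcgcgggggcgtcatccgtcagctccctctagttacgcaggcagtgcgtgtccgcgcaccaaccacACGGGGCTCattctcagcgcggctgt

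Small nucleolar and small Cajal body RNAs, which guide the modification of ribosomal and spliceosomal RNAs, filled the places below. Of the 20 highest genes per kb, 7 belong to these classes, SNORA73B, SNORA63, SCARNA10, SNORD17, SCARNA21, SCARNA2 and SNORA48. They held few reads, 0.407 ± 0.12% for the 90 genes of the snoRNA type. Of the annotated RNA types they also varied most between cultures. The highest culture was at least 1.5 times the lowest for 68 of these 90 genes, where the same held for 1667 of all 12768 genes (13.1%). These 90 genes had a median of 3.88 CPM. Their median CV (SD over the mean) was 32.6%, and the SD expected from counting, over the mean, had a median of 16.7%. Over all genes these medians were 35.7 CPM, 9.05% and 5.47%. The expected SD is not the median CV that counting would give over 3 libraries. Of 18 miRNA hairpin genes, also low in counts, 11 reached the same ratio. The part of low counts in these shares was not tested. SNORA63 stood at 247, 520 and 396 CPM, and SNORA52 at 18.1, 50.8 and 34.5 CPM. Culture 2 was highest and culture 1 lowest for both. Among the 58 genes named SNORA, which guide pseudouridylation, culture 2 was above the mean of the other two for 57, with a median log2 ratio of 0.71, where 44.6% of all genes were above. Among the 39 named SNORD, which guide ribose methylation, it was above that mean for 28, with a median of 0.22. Of 99 snoRNA and scaRNA genes with a GENCODE position, 97 lie inside another gene on the same strand, and the host did not always show the same order. SNORA52 lies within RPLP2, a ribosomal protein gene, whose values were 476, 453 and 476 CPM, lowest in culture 2. SNORA63 lies within EIF4A2, a translation helicase gene, which stood at 557, 638 and 566 CPM, a smaller spread than that of SNORA63. Such a small gene lies within the span of its host, and how the counting treated reads there is not given in the sources used here. The sequences show the short conserved boxes that define the classes, in capitals, box C (TGATGA) and box D (CTGA) in SNORD17 and the ACA box near the end of SNORA63 (GENCODE 29, GRCh38).
SNORD17 (chr20:17962710-17962946, minus strand): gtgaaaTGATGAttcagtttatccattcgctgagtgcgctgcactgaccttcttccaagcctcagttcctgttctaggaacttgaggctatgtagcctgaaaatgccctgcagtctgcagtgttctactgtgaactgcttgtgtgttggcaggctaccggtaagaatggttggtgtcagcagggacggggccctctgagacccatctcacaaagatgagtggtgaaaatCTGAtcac
SNORA63 (chr3:186787300-186787431, plus strand): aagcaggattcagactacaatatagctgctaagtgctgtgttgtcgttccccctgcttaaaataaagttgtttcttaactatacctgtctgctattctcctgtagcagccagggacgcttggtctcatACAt

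Of the long noncoding RNAs, MALAT1, a nuclear transcript of splicing speckles, had the most reads. It stood at 20512, 15350 and 18740 CPM, lowest in culture 2 (exact binomial 95% interval there 15274 to 15427 CPM). NEAT1, the scaffold of nuclear paraspeckles, stood at 983, 479 and 1003 CPM, so that culture 2 had the lowest value by a wide margin. The list of 32 long noncoding RNAs had 26 measured members with 2.05 ± 0.29% of the reads. Culture 2 was above the mean of the other 2 for 12 of them and below for 14, where 44.6% of all genes were above. Per kb, GAS5 (175) and DANCR (123), a snoRNA host and a cytoplasmic RNA, followed MALAT1 (2080). SCHLAP1, a long noncoding RNA known from aggressive prostate cancer, stood at 90.4, 75.4 and 101 CPM. PCGEM1, a prostate-specific transcript, stood at 16.6, 17.4 and 21.9 CPM and DRAIC, an RNA studied in prostate cancer, at 19.7, 24.2 and 21.6 CPM.

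The protein-coding genes with the most reads included several that mark prostate epithelium. MME, the cell-surface peptidase neprilysin, stood at 3846, 4468 and 4119 CPM. STEAP2, a metalloreductase of prostate epithelium, stood at 4207, 3439 and 4212 CPM, the lowest value again in culture 2. FOLH1, which encodes prostate-specific membrane antigen, stood at 2371, 2406 and 2381 CPM, a CV (SD over the mean) of 0.768%, the smallest of the 20 genes with the most reads. Reads of FOLH1 could be shared with its close copy FOLH1B, listed at a mean of 3.02 CPM. PRUNE2 was the opposite case, with 2787, 1687 and 2546 CPM. NCAM2, a neural cell adhesion molecule, had 2330 ± 187 CPM, and MAOA, the mitochondrial enzyme that oxidises monoamines, 2285 ± 34.0 CPM. Also within the first 20 were PRKACB, a catalytic subunit of protein kinase A, SLC30A4, a zinc exporter, AMD1, the decarboxylase that feeds polyamine synthesis, ADGRG6, an adhesion receptor, GRB10, an adaptor of the insulin receptor, and SESN3, a sestrin. Their means ran from 1997 CPM for PRKACB down to 1386 CPM for SESN3. EEF2, the translocase of the translating ribosome, was the leading translation gene at 2818, 2885 and 2736 CPM, and HSPA8, the constitutive heat shock cognate chaperone, stood at 1493, 1534 and 1497 CPM.

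Markers fixed for the check of cell type gave a luminal profile. All 15 luminal markers had a row, with a summed level of 9545, 8981 and 9539 CPM. Most of that sum came from STEAP2 and FOLH1, with means of 3953 and 2386 CPM. A longer list of 36 luminal secreted and surface genes had 27 rows, with means from 1.34 to 3953 CPM. Of 8 basal epithelial markers 1 had a row, CDH3, between 1.14 and 3.14 CPM, while KRT5, KRT14 and TP63 were not among the genes analysed here. A wider list of 13 basal genes had 4 rows, with DST at 53.6, ITGA6 at 31.0 and ITGB4 at 8.40 CPM beside CDH3. Of 10 neuroendocrine markers 2 had a row, and their sum of 99.5 to 105 CPM was nearly all ENO2, a glycolytic enzyme. A wider list of 18 neuroendocrine and neuronal genes had 6 rows, among them SLITRK5 at 29.1 CPM and DLL3 at 9.73 CPM. The 12 mesenchymal and stromal markers had 7 rows and a summed level of 294 to 323 CPM, of which fibronectin, FN1, had 236 ± 11.3 CPM and VIM 20.4 CPM. The wider list of 22 such genes had 10 rows, among them COL6A1, a collagen chain, at 180.1 CPM. The 9 immune and endothelial markers had 3 rows, CD68, VWF and HBB, at 24.6 to 28.2 CPM in sum. A bulk library cannot tell fewer cells of a type from less RNA per cell.

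**Figure D2:**
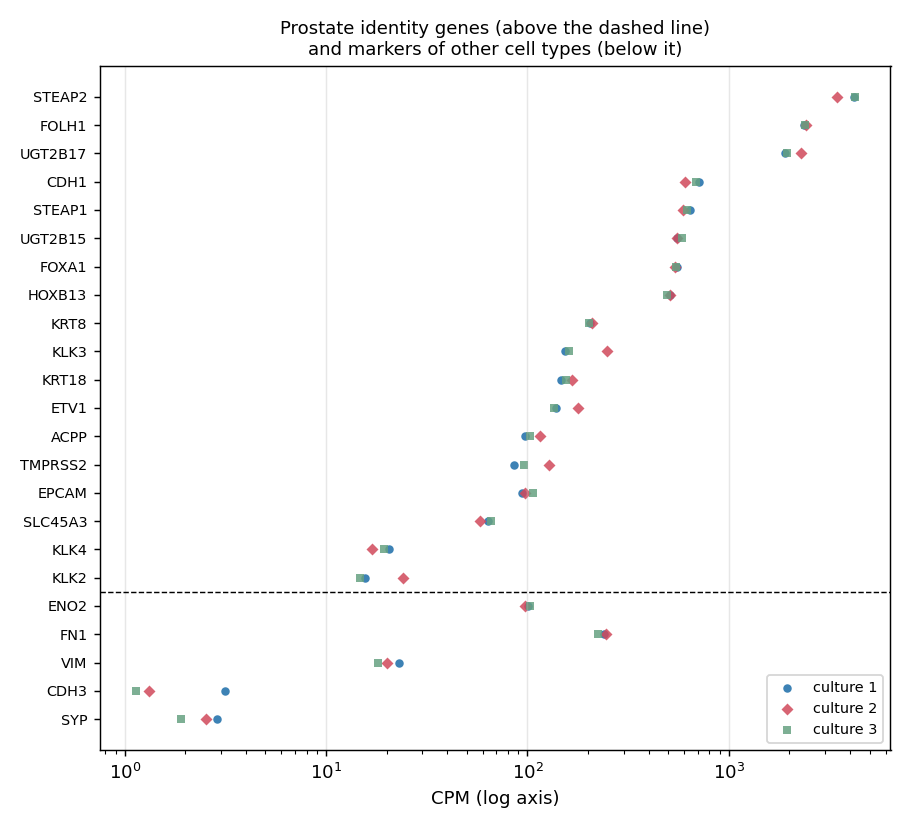
CPM on a log axis of 18 genes of prostate identity and 5 markers of other cell types in the 3 cultures, 1 point per culture; the genes plotted were chosen after their values were seen. KLK3, TMPRSS2 and KLK2 are highest in culture 2, and STEAP2 is lowest in it.

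KLK3, the gene of prostate-specific antigen and the best known target of the androgen receptor, stood at 154, 248 and 161 CPM, rank 1043 of all genes. The exact binomial 95% intervals were 147 to 162, 238 to 258 and 152 to 170 CPM, so culture 2 lay above the counting error of the other two. Without culture 2 the mean of 187 ± 52.4 CPM became 157 CPM. TMPRSS2, a surface serine protease under androgen control, stood at 85.3, 128 and 96.1 CPM, rank 2442. KLK2, the neighbouring kallikrein, stood at 15.5, 24.1 and 14.8 CPM. All 3 were highest in culture 2. The wider list of 38 androgen-induced genes did not share one direction. Of its 35 measured members, culture 2 was above the mean of the other two for 18 and below for 17, with a median log2 ratio of 0.018 beside -0.036 over all genes. ACPP, prostatic acid phosphatase, stood at 96.98, 115 and 103 CPM, and UAP1, an enzyme of amino sugar synthesis, at 241, 292 and 247 CPM.

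KLK3 and KLK2 lie next to each other on chromosome 19, and their RefSeq promoters are shown because they were the only 2 of 24 androgen-induced genes with an entry whose 250 bases before the start held the steroid receptor motif GNACANNNNGTNCT (both strands searched). The motif was chosen with the KLK3 promoter known. It was found in 2 of 42 starts of those genes (4.76%) and in 0.592% of all 35116 promoter entries. Capitals mark this motif, 169 bases before the KLK3 start and 175 before that of KLK2, and TATAAA in the reverse direction (TTTATA), 28 and 34 bases before the start, a word held by 10.7% of all entries. The 2 promoters share a run of 80 bases, and their mean levels per kb were 98.3 for KLK3 and 6.13 for KLK2. Since the genes are close relatives, how reads that fit both were counted is uncertain. A match describes only these letters (GRCh38.p14).
KLK3 (chr19:50854665-50854914, plus strand): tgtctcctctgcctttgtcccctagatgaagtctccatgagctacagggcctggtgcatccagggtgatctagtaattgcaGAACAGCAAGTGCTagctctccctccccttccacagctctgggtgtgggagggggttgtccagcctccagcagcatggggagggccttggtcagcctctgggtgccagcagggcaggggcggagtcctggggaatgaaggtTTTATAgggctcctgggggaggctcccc
KLK2 (chr19:50873189-50873438, plus strand): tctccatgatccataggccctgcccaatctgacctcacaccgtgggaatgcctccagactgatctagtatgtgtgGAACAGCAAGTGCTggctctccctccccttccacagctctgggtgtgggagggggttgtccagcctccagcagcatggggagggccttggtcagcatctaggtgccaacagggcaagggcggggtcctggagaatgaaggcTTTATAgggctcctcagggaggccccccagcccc

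The luminal transcription factors FOXA1 and HOXB13 were abundant and varied little between cultures. HOXB13, a prostate homeobox factor, stood at 513, 509 and 496 CPM and FOXA1, the pioneer factor that opens chromatin for the receptor, at 555, 538 and 549 CPM. CTNNB1, beta-catenin, led the list of 25 receptor, lineage and coregulator genes with 918 ± 54.3 CPM. The list had 19 measured members with 0.558 ± 0.0088% of the reads, and 3 of the 19 varied by at least 1.5 times between cultures, a share near the 13.1% of all genes. One of them was CREBBP, a histone acetyltransferase that acts as a coactivator, at 105, 62.0 and 90.5 CPM and lowest in culture 2. ETV1, an ETS factor whose gene is rearranged in this line, had 138, 178 and 136 CPM, highest in culture 2.

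Androgen glucuronidation, which inactivates dihydrotestosterone and is a known trait of LNCaP, was represented by 2 abundant genes. UGT2B17 stood at 1892, 2289 and 1948 CPM, rank 11 of all genes, and UGT2B15 at 552, 550 and 584 CPM. The related UGT2B11 had 80.3, 40.6 and 76.1 CPM, while UGT2B28, UGT2B10 and UGT2B7 had means of 2.99, 2.44 and 1.38 CPM. These genes are close relatives, so the division of reads among them is uncertain. Of the 25 genes of this list 17 were measured, with 0.339 ± 0.020% of the reads. Genes known from gut, liver or neural tissue were also read in these cells. DDC, which makes dopamine and serotonin, stood at 493, 632 and 526 CPM, OPRK1, the kappa opioid receptor, at 305, 311 and 321 CPM, the intestinal enzyme SI at 54.0, 82.3 and 58.6 CPM, and GCG, the glucagon gene, at 33.7, 17.3 and 28.4 CPM.

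Ribosomal protein genes dominated the messenger RNAs once length was taken into account. None of the 86 was among the first 20 genes by CPM, but 8 were among the first 20 per kb, 22 among the first 50 and 34 among the first 100. The 81 measured members held 2.29, 2.68 and 2.31% of the reads, and 5.77 ± 0.14% of the summed CPM per kb. RPL37A, of the large subunit, led with 1600 CPM per kb, at 579, 825 and 602 CPM, followed by RPS6, a small subunit protein phosphorylated by S6 kinase, with 1414 CPM per kb. Culture 2 was above the mean of the other 2 for 67 of the 81, with a median log2 ratio of 0.20. Over all genes 44.6% were above, with a median of -0.036. The median length of the 81 was 837 bases, below the 3236 of all genes. After a linear fit on GC content and length, added after seeing the data, the median of the 81 was 0.11, beside 0.038 over all genes.

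Although ribosomes hold most of these proteins in equal number, the deposited levels of their genes were far from equal. They ran from 1.31 CPM per kb for RPL7 to 1600 for RPL37A, with a median of 252. The 6 members under 10 CPM per kb were RPL7, RPL36A, RPS26, RPS27, RPL17 and RPL9. GENCODE 29 names 15 to 61 pseudogenes after each of these 6 (median 22.5), whereas the 75 other measured members had a median of 6.0 with a range of 0 to 91. The part of these copies in the low counts was not tested, and levels of such genes are uncertain. The deposited lengths also enter the levels per kb. RPL13 had 417 CPM but 88.2 CPM per kb at 4726 bases, and RPL28 126 CPM but 24.4 CPM per kb at 5183 bases. Without division by length the means of the list ran from 1.10 to 1173 CPM. The part of the lengths in the unequal levels was not tested. RPS16 varied most of the list, at 156, 305 and 85.4 CPM, followed by RPL39, at 69.6, 162 and 86.8 CPM, both highest in culture 2. The steadiest was RPS19, whose highest culture was 1.01 times the lowest.

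Messenger RNAs of ribosomal proteins and several translation factors are known to begin with a run of pyrimidines, through which mTOR signalling controls their translation. Among RefSeq starts of the list, 57 of 82 (69.5%) held a run of at least 7 C or T between 10 bases before and 15 bases after the start, as did 16 of 41 starts of translation factors (39.0%) and 16.6% of all 35116 entries. The windows shown run from 20 bases before to 30 bases after the start (GRCh38.p14) of the 6 highest genes per kb of these lists with a single RefSeq start, and capitals mark the longest run of C and T inside the searched window. In RPL27 only 5 bases of its run fell inside the window, and the run continued beyond it.
RPL37A (chr2:216498824-216498873, plus strand): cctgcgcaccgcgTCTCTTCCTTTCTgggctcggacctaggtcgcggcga
RPS6 (chr9:19380207-19380256, minus strand): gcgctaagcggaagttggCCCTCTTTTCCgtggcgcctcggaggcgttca
RPL27 (chr17:42998399-42998448, plus strand): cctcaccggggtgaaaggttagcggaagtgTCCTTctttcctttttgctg
RPLP2 (chr11:809947-809996, plus strand): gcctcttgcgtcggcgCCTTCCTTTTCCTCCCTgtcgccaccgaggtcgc
RPL35A (chr3:197950170-197950219, plus strand): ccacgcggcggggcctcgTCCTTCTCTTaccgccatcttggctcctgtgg
EEF2 (chr19:3985434-3985483, minus strand): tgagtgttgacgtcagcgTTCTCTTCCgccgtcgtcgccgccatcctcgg

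The rest of the growth machinery held smaller shares, which the plot of list shares sets side by side. Translation factors had 1.33 ± 0.015% of the reads over 41 of 43 genes, with GNB2L1, the ribosomal scaffold RACK1, at 970, 1009 and 987 CPM. The nuclear genes of the respiratory chain and ATP synthase had 0.900 ± 0.043% over 59 of 60, led per kb by COX7C, a cytochrome oxidase subunit, with 787 CPM per kb. The cytosolic chaperones had 0.731 ± 0.041%, and genes of folding and secretion in the endoplasmic reticulum 0.694 ± 0.0037%. HSP90AA1 stood at 788, 1072 and 699 CPM, and HSPA5, the chaperone BiP, at 304, 428 and 264 CPM, both highest in culture 2. Glycolysis genes varied little, with a median CV of 4.00% beside 9.05% over all genes and 7.21% over genes with at least 20 CPM. None of 19 varied by 1.5 times, beside 13.1% of all genes and 4.14% of those with at least 20 CPM. GAPDH stood at 1104, 1049 and 1079 CPM. Cholesterol and fatty acid synthesis held 0.672 ± 0.052%, and FADS2, a fatty acid desaturase, stood at 570, 473 and 544 CPM.

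**Figure D3:**
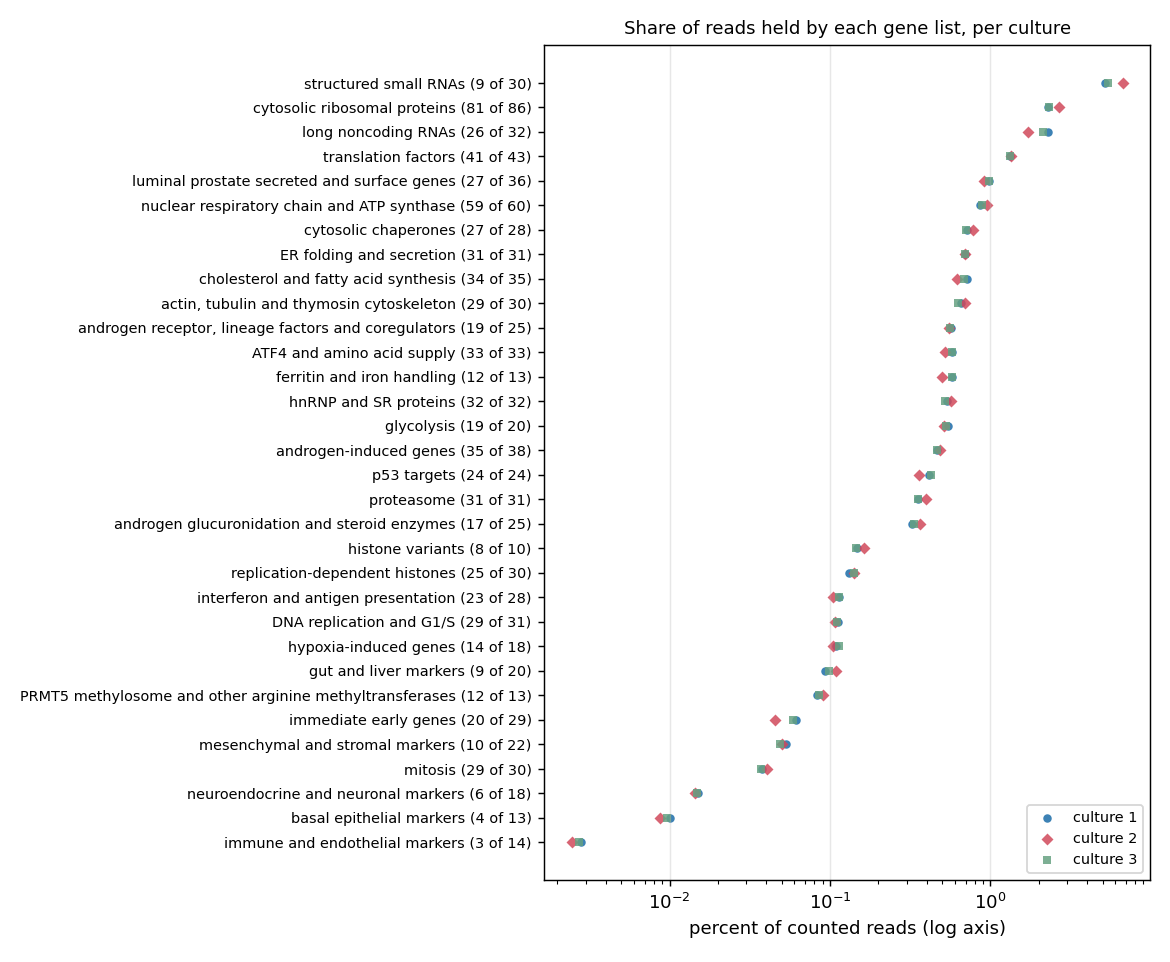
Percent of counted reads, on a log axis, held by each gene list in the 3 cultures, 1 point per culture; in brackets, the members measured of all members. Structured small RNAs, of which 9 of 30 were measured and 21 had no row, lead at 5.21 to 6.70%. RPPH1 and RMRP alone hold 4.98 to 6.38%, so these 2 genes carry the lead of that list. Ribosomal proteins follow at 2.29 to 2.68%. Both lists are highest in culture 2, while the luminal list holds 0.911 to 0.979%.

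Genes of cell division held few reads. CCND1, cyclin D1, stood at 295, 261 and 295 CPM and CDK4 at 97.8, 96.6 and 93.5 CPM, but the 29 measured genes of mitosis held 0.0384 ± 0.0016% of the reads. MKI67, the proliferation marker Ki-67, stood at 8.77, 6.18 and 8.34 CPM and CDK1 at 89.1, 86.0 and 91.0 CPM. Targets of p53 held more, 0.401 ± 0.037% over 24 genes, led by TP53INP1, a regulator of autophagy and cell death, at 1262, 933 and 1319 CPM. Of the replication-dependent histones, 25 of 30 had a row, and HIST1H1C, a linker histone, led with 774 CPM per kb. The 12 measured arginine methyltransferase and methylosome genes varied little, with a median CV of 4.89%. PRMT5 itself stood at 89.4, 91.0 and 83.4 CPM in these cultures and its partner WDR77 at 76.1, 75.9 and 81.9 CPM.

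The spread between the cultures was small for most genes. The median CV was 9.05%, and the SD expected from counting, over the mean, had a median of 5.47%. That expected SD is not the median CV that counting would give over 3 libraries, so the values differ in kind. The common biological coefficient of variation of edgeR was 10.1% over the 3 cultures but 3.05% without culture 2. Of all genes 399 (3.12%) varied by at least 2 times. Of the 8328 genes with a mean of at least 20 CPM, 345 varied by at least 1.5 times. Culture 2 was the farthest of the 3 for 324 of those 345 genes (93.9%), low for 273 and high for 51. Over all 8328 it was the farthest for 5229 (62.8%), low for 2833 and high for 2396. The steadiest of the 8328 were BOD1, EHF, DEXI, WDR41 and EBLN3. EHF, an epithelial ETS factor, stood at 866, 865 and 865 CPM. These 5 were picked as the extreme of the 8328. Their CVs of 0.030 to 0.14% lay below the 1.11 to 6.52% expected from counting, so such closeness is no measure of steadiness.

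The most variable of the 8328 was MIR663AHG, a long noncoding host gene, at 50.2, 9.73 and 61.8 CPM, a ratio of 6.35 between the highest and the lowest. ANKRD30BL was also lowest in culture 2, at 455, 156 and 464 CPM, and so were C15orf52, at 76.0, 30.3 and 71.0 CPM, and the zinc finger gene ZNF703, at 29.5, 12.5 and 25.3 CPM. Culture 2 was highest for SYT4, a synaptotagmin of vesicle release, at 34.0, 100 and 39.2 CPM. Of the 15 most variable genes, 4 were lowest in culture 2 and 11 highest, among them 7 snoRNAs and the ribosomal protein genes RPS16 and RPL39.

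Some families leaned one way in culture 2 and others split, as the plot of list deviations shows. Culture 2 was above the mean of the other two for 29 of 31 proteasome genes (median log2 ratio 0.19) and 45 of 59 respiratory chain genes (0.11). It was below that mean for 26 of 33 genes of ATF4 and amino acid supply (median -0.27), where 55.4% of all genes were below. GDF15, a stress-induced cytokine on that list, stood at 250, 150 and 244 CPM, and CHAC1, which degrades glutathione, at 12.7, 5.98 and 11.9 CPM. Culture 2 was also below that mean for 14 of 20 measured immediate early genes (median -0.32), including JUN at 117, 83.1 and 115 CPM and MYC at 101, 61.4 and 91.4 CPM, and for 19 of 23 interferon and antigen presentation genes (median -0.18). It split the 19 glycolysis genes into 9 above that mean and 10 below. These counts are descriptions, since the genes of a list share their library.

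**Figure D4:**
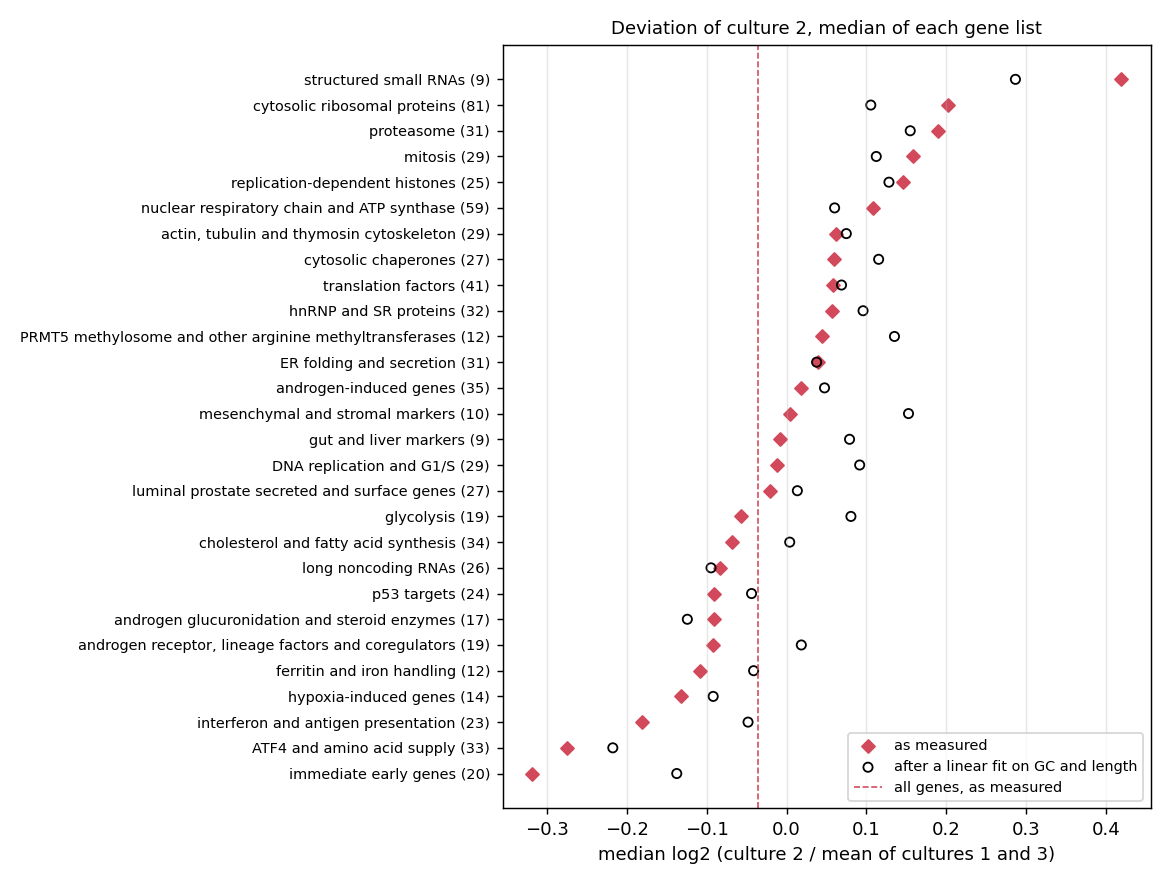
Median over the members of each list with at least 9 measured genes of the log2 ratio of culture 2 to the mean of cultures 1 and 3, as measured (diamonds) and after a linear fit on GC content and length over all genes (open circles), with the number of measured genes in brackets. Structured small RNAs lie highest at 0.42 and immediate early genes lowest at -0.32, and the dashed line marks the -0.036 of all genes.

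Gene length and base composition moved with the same culture. The median log2 ratio of culture 2 to the other two was 0.46 for the 119 genes of up to 200 bases and -0.20 for the 87 genes over 16000 bases. By transcript GC content it was 0.073 in the 1247 genes lowest in GC and -0.25 in the 1247 highest. In a linear fit over 12469 genes the ratio changed by -0.13 for each 10 points of GC and by -0.081 for each doubling of length. After that fit the median of ribosomal protein genes was 0.11, of proteasome genes 0.15, of ATF4 genes -0.22, of immediate early genes -0.14 and of interferon genes -0.048, with 0.038 over all genes, while KLK3 stood at 0.74 and TMPRSS2 at 0.62. Culture 1 ran the other way among the shortest genes, with a median of -0.49 up to 200 bases. Its reference includes culture 2, so this follows at least in part from the ratio itself. The genes of up to 200 bases include snoRNAs such as SNORA63 (135 bases) and SNORA68 (133 bases). RNA class and length therefore cannot be told apart among them. The part of length and GC content in the differences between cultures was not tested beyond this fit.

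**Figure D5:**
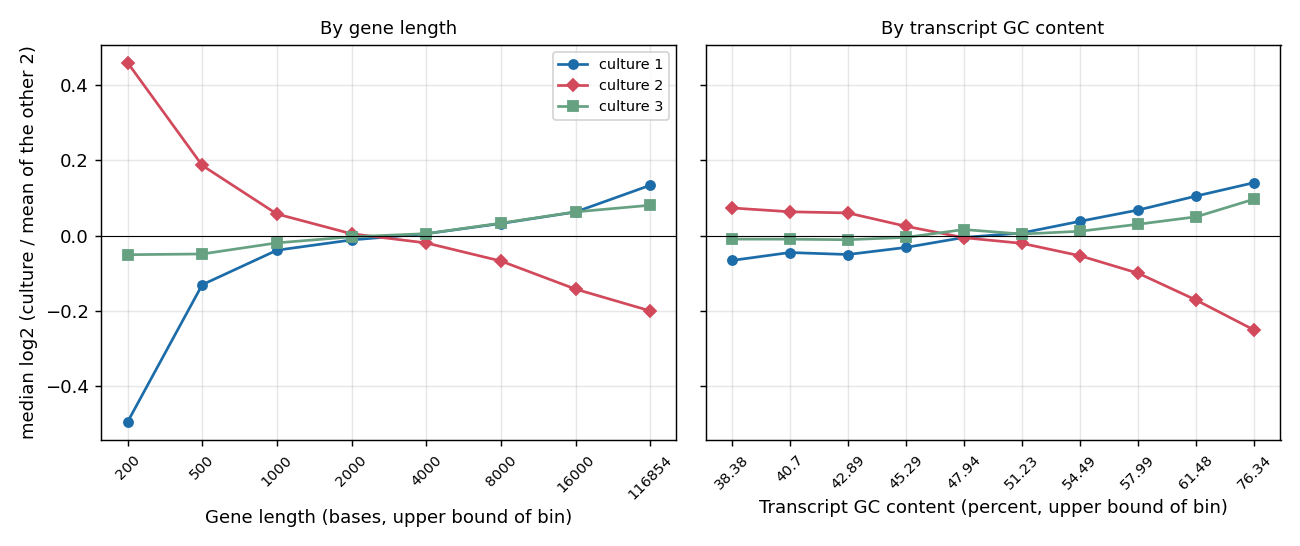
Median log2 ratio of each culture to the mean of the other 2 by gene length (left, upper bound of each bin in bases) and by transcript GC content (right, upper bound in percent), 1 line per culture. Culture 2 runs from 0.46 to -0.20 with length and from 0.073 to -0.25 with GC content, and cultures 1 and 3 run the opposite way. Their reference includes culture 2, so the opposite course follows at least in part from the ratio itself.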

How the data were processed

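RNA of 3 LNCaP cultures without knockdown was extracted with Trizol, and sequencing libraries were prepared by a contract laboratory (NEBNext Ultra II), per the labels' protocols. The submitters' processing notes list STAR 2.5, Subread 1.6.5 with featureCounts, edgeR 3.20.8 and bcl2fastq, and the build hg38. The authors deposited raw read counts per gene and, per the file headers, log2 CPM for each library; their log2 fold changes and p-values in the deposited table were not used. The deposited coordinates overlap the GENCODE 29 position of the same name for 15.9% of matched genes, so their build is uncertain and printed positions come from GENCODE 29 (GRCh38) or RefSeq. Symbols matched GENCODE by name for 12036 genes and by synonym for 433.

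CPM is a count over the summed counts of its library, and CPM per kb divides it by the deposited gene length, with no pseudocount. Means, SDs, CVs and ratios were computed in Python 3.11.15 (pandas 2.3.3, scipy 1.17.1), and dispersions with edgeR 4.0.16 and size factors with DESeq2 1.42.0 in R 4.3.3, tested on simulated data. Library totals of 7911853 to 10826534 reads set the precision, and intervals are exact binomial at 95%. The text names KLK3, TMPRSS2, the first 20 genes on each scale, the 15 most and 5 least variable genes with at least 20 CPM, and in each of 33 lists the first 3 per kb and the most variable; these are given in part, and further genes in the text were picked with their values known. A few genes that this rule takes are not reported here. The members and lists were chosen with earlier results of these data known. Alternatives were TMM and DESeq2 scaling, each culture left out, a filter of 10 counts, deposited log2 CPM, geometric means, GENCODE transcript lengths, and shares of CPM per kb.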

Additional observations from a re-analysis of the deposited data

How the results depend on the processing

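No paired analysis was possible because the values come from 1 group and from no test. TMM and DESeq2 scaling left the first 20 genes on both scales the same and moved no share of reads held by a list or by the top genes by more than its spread. Leaving out each culture in turn gave 9.08 to 9.52% of reads for the first 10 genes, 2.96 to 9.36% of genes that varied by 1.5 times (13.1% over all 3), a median CV of 4.26 to 9.28% and an edgeR biological coefficient of variation of 3.05 to 12.8%, the lowest of each without culture 2. With 1 culture left out, the ratio of highest to lowest is taken over 2 cultures and cannot exceed that over all 3. Part of the fall from 13.1% therefore comes from the number of cultures. Over all 3 cultures a ratio of at least 2 was met by 3.12% of genes, and of genes with at least 20 CPM 4.14% varied by 1.5 times. With the longest GENCODE transcript in place of the deposited length, 12 of the 20 highest genes per kb were shared. Counted per length, the first 10 genes held 37.4% and structured small RNAs 35.7%, with 33.6% in RPPH1 and RMRP alone. Ribosomal proteins held 5.77%, respiratory chain genes 1.75%, long noncoding RNAs 0.600% and luminal genes 0.576%. After the fit on GC content and length, chosen after seeing the data, the median log2 ratio of culture 2 was 0.11 for ribosomal protein genes, 0.060 for respiratory chain genes, -0.048 for interferon genes and -0.14 for immediate early genes. The median also changed sign there for glycolysis (-0.057 to 0.081), DNA replication (-0.012 to 0.092), cholesterol and fatty acid synthesis (-0.068 to 0.0040), receptor, lineage and coregulator genes (-0.092 to 0.018), luminal genes (-0.020 to 0.014), gut and liver markers (-0.0078 to 0.079) and all genes (-0.036 to 0.038). Under TMM and DESeq2 scaling it turned to 0.019 and 0.023 for DNA replication, 0.011 and 0.015 for luminal genes and 0.023 and 0.027 for gut and liver markers. Among genes with at least 20 CPM it turned to 0.0045 for DNA replication and 0.0092 for long noncoding RNAs, and with 10 counts in each library to -0.034 for stromal markers. Without culture 1 or 3 it was -0.011 to 0.021 for luminal genes, -0.027 to 0.030 for gut and liver markers and -0.090 to 0.13 for stromal markers. The cause of these sign changes was not tested. No other result recomputed here changed sign. Of 2752 further values of single genes and lists, the 19 sign changes included, 136 others moved by more than their spread or by over 1.5 times, 26 of them in shares per length and 27 without culture 2. Depth limits genes near 1 CPM, where 3 counts are 0.277 to 0.379 CPM.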
